A study of Mus musculus with 9 samples.

Results

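The cornified envelope genes are the genes whose products build the tough protein shell of the outermost cells of skin and other stratified epithelia. They were chosen by gene symbol: all Sprr and Lce genes, together with Flg, Flg2, Hrnr, Rptn, Ivl, Lor, Crct1, Scel, Kprp, Krtdap, Sbsn and Cnfn, which gave 49 of the 18484 genes in the files. They comprise 13 SPRR genes, 21 LCE genes, 7 rows of fused S100 genes (4 of them named Flg), 2 scaffold genes and 6 others. RNA-seq was carried out on 9 mammary tumours of BlgCre-NeuKI mice, with 1 library per tumour. All carried an activated rat Neu allele in the endogenous Erbb2 locus, behind a STOP cassette. The design removes this cassette by a Cre driven by the Blg promoter, active mainly in luminal ER- mammary cells. By droplet digital PCR, the paper found no evidence of cassette recombination or locus amplification in MS1349.1. All mice had a mixed FVB and C57Bl6 background, and the labels used here give no ages.

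The histotypes compared were metaplastic adenosquamous carcinoma (ASQC), which contains squamous areas, and AC(NST), an adenocarcinoma without special features. The 2 ASQC tumours, MS1210.1 and MS1349.1, came from parous mice and were not/low-amplified at Neu. Of the 6 AC(NST) tumours, MS1213.1, MS1163.1 and MS1163.2 came from virgin mice and were high-amplified, MS1218.2 and MS1155.3 came from parous mice and were high-amplified, and MS1166.1 came from a parous mouse and was not/low-amplified. The sarcoma MS1156.1, from a parous mouse, was not/low-amplified and entered no test. These amplification classes are those of the paper's quantitative PCR on tumour DNA. The paper reports MS1218.2 and MS1213.1 as discordant, high by that method but low by droplet digital PCR. Its exome data sided with droplet digital PCR for MS1218.2 and with quantitative PCR for MS1213.1. Both are kept as high-amplified here. MS1163.2 and MS1163.1 share a mouse number, and the study's methods name MS1218.2 as having lower tumour cell purity.

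During terminal differentiation, keratinocytes replace their plasma membrane with the cornified envelope. Transglutaminases crosslink scaffold proteins such as involucrin (Ivl) and loricrin (Lor) to each other and to small proline-rich (SPRR) and late cornified envelope (LCE) proteins, while filaggrin and its fused S100 relatives bundle keratin filaments or join the envelope. Most of these genes lie together in the epidermal differentiation complex. Glandular mammary epithelium does not cornify. In bulk tumour RNA, fewer cells of a type and less RNA per cell cannot be told apart.

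Of the 49 genes, 45 were found by Ensembl identifier in the GENCODE M21 annotation (GRCm38), and the 4 rows named Flg were not. In that annotation 41 lay on chromosome 3 between 92080271 and 93399442, Cnfn, Sbsn and Krtdap lay on chromosome 7, and Scel lay on chromosome 14. Several of these genes are near-copies of each other, which matters because the authors counted only reads with a single position in the genome. Some families hold whole 76-base coding windows in common, the length of 1 sequenced read. Reads were sequenced in pairs, and a mate outside a shared window can still give the pair a single position. This was not assessed. The following windows are shown because a read lying wholly inside one could, taken alone, come from more than 1 gene. The first was held by Sprr2a1, Sprr2a2 and Sprr2a3, the second by all 6 Lce3 genes and the third by 5 Lce1 genes. Each is written 5′ to 3′ on the coding strand of GRCm38 and lies in coding exon sequence.
Sprr2a3, chr3:92288651-92288726, plus strand: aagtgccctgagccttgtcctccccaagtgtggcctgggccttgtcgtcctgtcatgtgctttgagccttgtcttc
Lce3c, chr3:92945418-92945493, plus strand: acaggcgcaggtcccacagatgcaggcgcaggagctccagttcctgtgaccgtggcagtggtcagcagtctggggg
Lce1f, chr3:92718967-92719042, minus strand: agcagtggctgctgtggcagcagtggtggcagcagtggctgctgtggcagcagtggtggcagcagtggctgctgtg

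Over all 76-base windows of the annotated transcripts, a median of 95.6% of a gene's windows were found in no other gene (45 genes). Only 5.81% of the windows of Sprr2a1 and 5.42% of those of Sprr2a2 were, against 53.0% for Sprr2a3. Among the Lce3 genes the share ran from 54.5% for Lce3f to 94.0% for Lce3b, and among the Lce1 genes from 86.6% to 100%. Each of the other placed genes, outside the Sprr2, Lce1 and Lce3 families, had at least 94.2%. The annotated Sprr2a1 and Sprr2a2 models also overlap, and part of Sbsn is shared with the overlapping gene Tmem147os. Windows repeated within 1 gene were counted once and not as shared. Hrnr had 4772 distinct windows in 11187 exon bases and Flg2 10706 in 20803, so reads from repeats inside these genes can also lack a single position. Counts of Hrnr, Flg2, Sprr2a1, Sprr2a2, Sprr2a3 and the Lce3 genes are therefore uncertain as levels of the single gene.

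**Figure D1:**
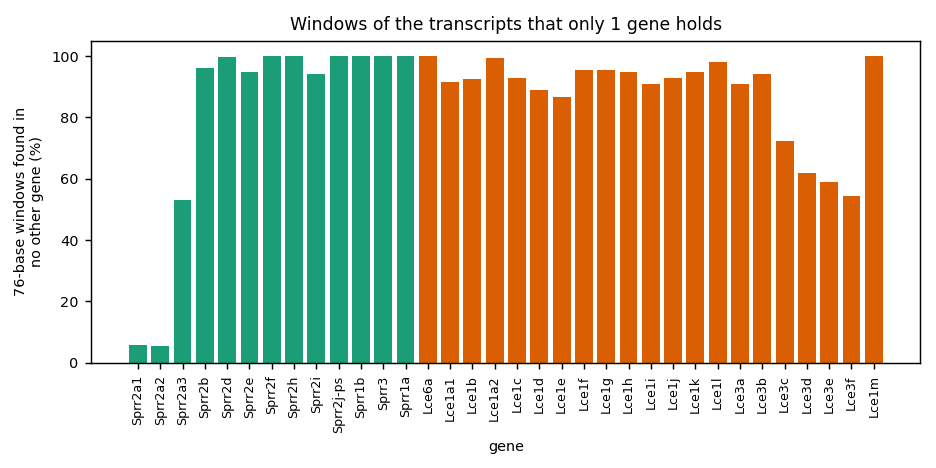
For each placed SPRR (green) and LCE (orange) gene, the bar gives the percentage of its 76-base transcript windows found in no other gene. Sprr2a1 and Sprr2a2 stand near 0 and the Lce3 genes fall between 54.5% and 94.0%, whereas most other bars are above 86%.

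The cornified envelope genes took a far larger share of the counted reads in both ASQC tumours than in any other tumour. They held 1014 CPM (reads per 1000000 counted reads) in MS1210.1 (95% Wilson interval 1001.02 to 1026.65) and 395 in MS1349.1 (387 to 403). Among the AC(NST) tumours the share ran from 4.48 in MS1163.1 through a second lowest of 5.76 in MS1163.2 to 10.7 in MS1218.2 and 15.4 in MS1166.1 (13.5 to 17.5), with MS1213.1 (8.74) and MS1155.3 (9.97) between, and in the sarcoma it was 2.60 (1.86 to 3.64). The groups did not overlap. Intervals cover counting error only, since reads without molecular identifiers are not independent molecules. Most of the AC(NST) share came from Sbsn, and without it the 6 AC(NST) tumours held 0.268 to 2.12 CPM, against 981 in MS1210.1 and 371 in MS1349.1.

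Depth differed between the groups: the ASQC libraries had 23703980 and 23912429 counted reads, and the AC(NST) libraries had 12501225 to 18327792. A count of 0 allows up to 3 reads, which is 0.164 to 0.24 CPM in an AC(NST) tumour. In all, 44 of the 49 genes had a read in both ASQC tumours, and 28 had none in any AC(NST) tumour. Both ASQC tumours were above every AC(NST) tumour for 43 of the 49, where 6.01% of the 18358 genes with a count in the 8 epithelial tumours showed that pattern.

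**Figure D2:**
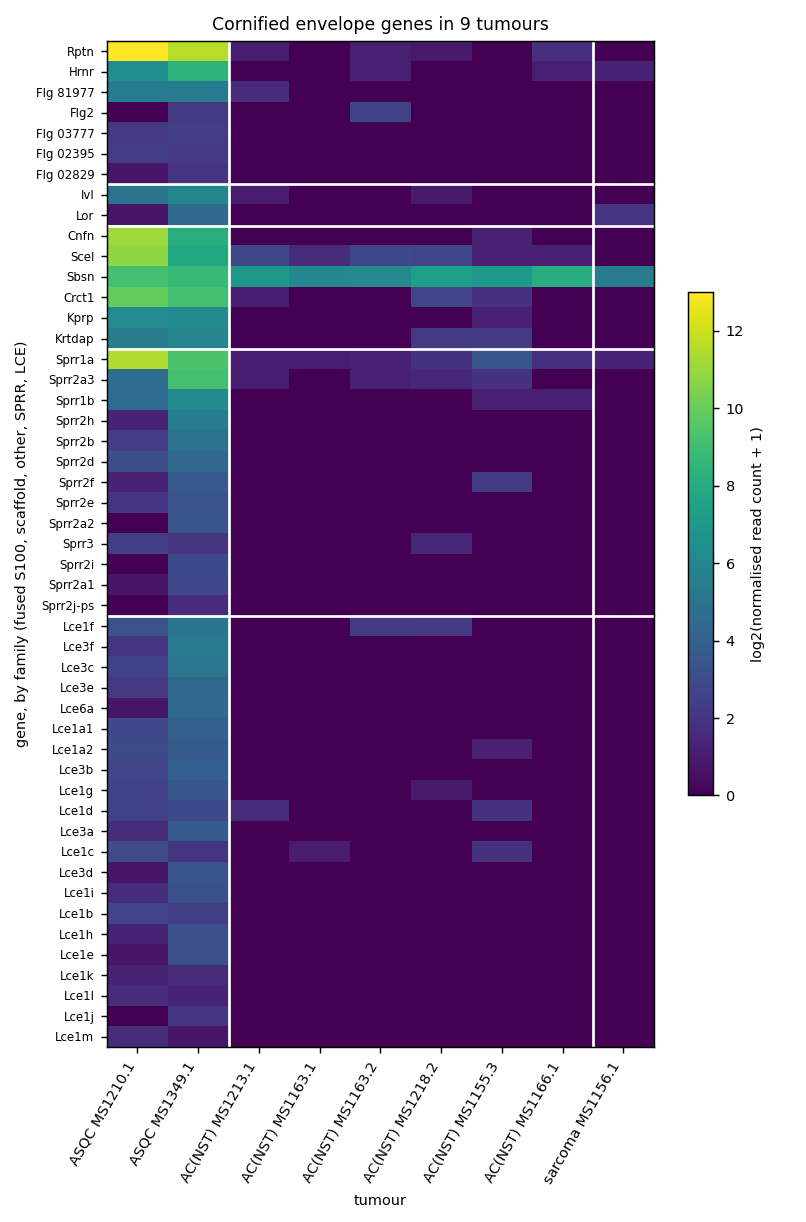
Each row is 1 of the 49 genes and each column 1 of the 9 tumours, and the colour gives log2(normalised read count + 1). Of the 49 rows, 44 have a read in MS1210.1 and 49 in MS1349.1, many of them few, whereas in the AC(NST) and sarcoma columns Sbsn reaches 271 and Sprr1a 10.3 normalised reads and every other row stays below 10.

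In the fit without a filter on counts, 11 of the 49 genes were higher in ASQC, where 0.91% of the 18358 genes tested were called higher (edgeR's quasi-likelihood test, Benjamini-Hochberg adjusted p under 0.05 and a log2 fold change beyond 1). None was called lower, where 0.0218% of all genes were. All 49 estimates were positive, from 1.11 to 12.40 on the log2 scale, with a median of 5.42 beside a median of -0.16 over all genes. Fitted values against a group at 0 depend on the prior count, and with 27 of the 28 such genes (those above the bound) placed instead at the lower bound that 3 reads over the 6 AC(NST) tumours allow, the median was 3.88. Without an adjustment, 45 of the 49 had a p under 0.05, beside 1689 of all genes. The main fit kept genes that reached 10 counts in 2 or more of the 8 epithelial tumours, which 16 of the 49 passed. All but Sbsn of these passed through the ASQC tumours, so their share of calls (11 of 16, where 1.01% of 14517 genes were called higher) follows in part from the filter. The same 11 genes were called in both fits. Fold changes below are from the main fit unless stated.

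**Figure D3:**
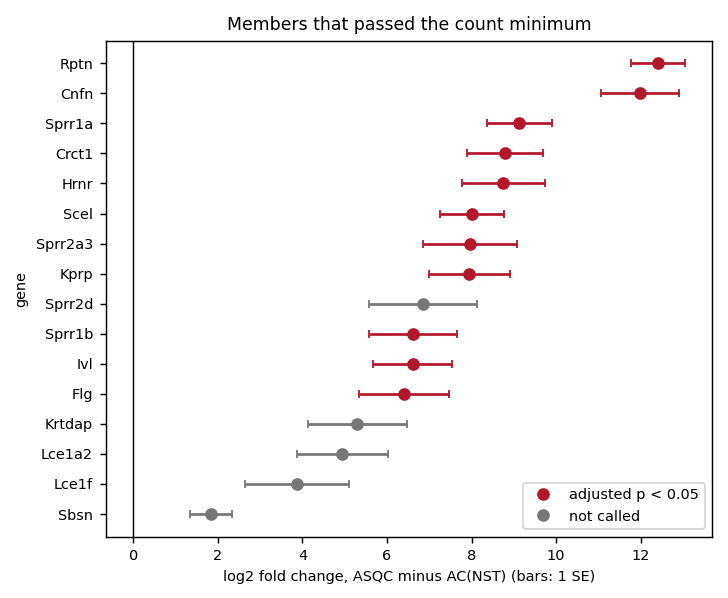
Points give the log2 fold change of ASQC over AC(NST) for the 16 genes that passed the count minimum, with bars of 1 SE, in red where called and in grey where not. Rptn (12.41) and Cnfn (11.99) lie farthest to the right and Sbsn (1.84) farthest to the left.

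Among the fused S100 rows of the cornified envelope genes, repetin had the most reads. Repetin (Rptn, ENSMUSG00000041984, chromosome 3, 93393699 to 93399442) is an envelope precursor known from tongue papillae, forestomach and hair follicle. Its normalised read count was 8180.4 in MS1210.1 and 3066 in MS1349.1, while outside ASQC it did not exceed 2.38 (MS1166.1), with 1.24 in MS1163.2, 0.963 in MS1213.1, 0.926 in MS1218.2 and 0 in the rest. The lowest ASQC tumour was thus far above every AC(NST) tumour. Its log2 fold change was 12.41 ± 0.63 (SE, n = 2 and 6; edgeR adjusted p = 5.55e-05), the smallest adjusted p of any gene tested.

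Hornerin (Hrnr), a filaggrin-like protein of the cornified layer, stood at 83.0 in MS1210.1 and 339.7 in MS1349.1, at 1.19 in MS1166.1, 1.24 in MS1163.2 and 1.42 in the sarcoma, and at 0 in the other AC(NST) tumours (log2 fold change 8.75 ± 0.98, edgeR adjusted p = 0.00372). The 4 rows named Flg were not placed in the annotation, so how far their reads are unique was not assessed. The row ENSMUSG00000081977, named Flg, had 40.1 and 40.2 normalised reads in MS1210.1 and MS1349.1, 1.93 in MS1213.1 and 0 elsewhere (6.41 ± 1.06, edgeR adjusted p = 0.0237). The other 3 rows named Flg had at most 4.38 in any tumour and 0 outside ASQC. Filaggrin-2 (Flg2), another keratin-binding relative, was at 3.65 in MS1349.1, 4.97 in MS1163.2 and 0 in every other tumour, and the groups overlapped (unfiltered edgeR adjusted p = 0.848).

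Transcripts of the classical scaffold proteins were low. Involucrin (Ivl) had 30.9 normalised reads in MS1210.1 and 60.6 in MS1349.1, 0.963 in MS1213.1, 0.926 in MS1218.2 and 0 in the remaining tumours (6.60 ± 0.94, edgeR adjusted p = 0.0126). Loricrin (Lor), the main protein of the envelope in epidermis, had 0.703 in MS1210.1, 20.5 in MS1349.1, 2.84 in the sarcoma and 0 in all 6 AC(NST) tumours, and it did not reach the count minimum. Its mean in ASQC was at least 19.0-fold higher than the bound for AC(NST), and in the unfiltered fit it was not called (edgeR adjusted p = 0.257). Per kilobase of exon, Lor stood at 0.395 normalised reads in MS1210.1 and 11.5 in MS1349.1, whereas Ivl stood at 16.1 and 31.6.

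Of the SPRR genes, which act as crosslinking bridges, Sprr1a held most reads. Its normalised read count was 2836 in MS1210.1 and 661 in MS1349.1. The highest AC(NST) tumour was MS1155.3 with 10.3, followed by MS1218.2 (2.78), MS1166.1 (2.38), MS1163.2 (1.24), MS1163.1 (1.05) and MS1213.1 (0.963), and the sarcoma had 1.42. Every tumour therefore had reads of Sprr1a, with the ASQC tumours well apart (9.13 ± 0.77, edgeR adjusted p = 0.000811). Its close relative Sprr1b had 22.5 and 74.5 in MS1210.1 and MS1349.1, 1.19 in MS1166.1, 1.29 in MS1155.3 and 0 elsewhere (6.62 ± 1.04, edgeR adjusted p = 0.0180).

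Sprr2a3 had 24.6 normalised reads in MS1210.1 and 582 in MS1349.1. Of the others MS1155.3 had 2.58, MS1218.2 had 1.85, MS1163.2 had 1.24, MS1213.1 had 0.963 and the rest 0 (7.97 ± 1.11, edgeR adjusted p = 0.0107). Its identical copies limit this value, as the first window printed above shows. Sprr2h, which shares no window with another gene, had 1.41 and 44.6 in the ASQC tumours and 0 in all others, with an unfiltered edgeR adjusted p of 0.179. Its mean in ASQC was at least 41.3-fold higher than the bound for AC(NST). That mean rested on 61 reads in MS1349.1 and 2 in MS1210.1. The other 9 SPRR genes had at most 7.74 normalised reads in MS1210.1 and 29.2 in MS1349.1, none of them called. Over the family, 8 of 13 genes had no read in any AC(NST) tumour.

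The LCE genes, whose small proteins are added late, were low throughout, and none of the 21 was called in the unfiltered fit, nor either of the 2 that passed the count minimum, by edgeR or DESeq2. Without an adjustment, 20 of the 21 had a p under 0.05 in the unfiltered edgeR fit. Lce1f had 8.44 normalised reads in MS1210.1, 31.4 in MS1349.1, and 3.70 and 3.73 in MS1218.2 and MS1163.2, with 0 elsewhere (3.87 ± 1.23, edgeR adjusted p = 0.288). Lce3f had 2.81 and 37.3, Lce3c 4.92 and 32.9, and Lce3e 3.52 and 19.0 normalised reads in MS1210.1 and MS1349.1, and all 3 were at 0 in the other 7 tumours. For 20 of the 21 genes both ASQC tumours were nonetheless above every AC(NST) tumour, and 16 had no read in AC(NST). Summed over the family, LCE reads made up 4.47 CPM in MS1210.1 (3.70 to 5.41) and 14.8 in MS1349.1 (13.3 to 16.4), against 0 to 0.393 in AC(NST) and 0 in the sarcoma.

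Of the 6 remaining genes, 4 were called. Cornifelin (Cnfn), an envelope protein, had 2183 normalised reads in MS1210.1, 294 in MS1349.1, 1.29 in MS1155.3 and 0 in every other tumour (11.99 ± 0.93, edgeR adjusted p = 0.000589). Sciellin (Scel), an envelope precursor, had 1762 and 241 in the ASQC tumours, and in AC(NST) reached 6.21 (MS1163.2), 5.78 (MS1213.1), 5.55 (MS1218.2), 2.10 (MS1163.1), 1.29 (MS1155.3) and 1.19 (MS1166.1), with 0 in the sarcoma (8.01 ± 0.76, edgeR adjusted p = 0.00146). Cysteine-rich C-terminal 1 (Crct1), which lies beside the LCE genes, had 963 and 558 in ASQC, 5.55 in MS1218.2, 2.58 in MS1155.3, 0.963 in MS1213.1 and 0 elsewhere (8.79 ± 0.91, edgeR adjusted p = 0.00239). Outside ASQC these 3 genes thus had at most 6.21 normalised reads.

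Kprp, a keratinocyte proline-rich protein, had 76.7 and 74.5 normalised reads in ASQC, 1.29 in MS1155.3 and 0 elsewhere (7.94 ± 0.96, edgeR adjusted p = 0.00609). Krtdap, a secreted protein linked to keratinocyte differentiation, had 44.3 and 64.3 in ASQC, 3.70 in MS1218.2, 3.86 in MS1155.3 and 0 elsewhere. Although its groups did not overlap, it was not called (5.30 ± 1.17, edgeR adjusted p = 0.0838), whereas DESeq2 (adjusted p = 0.0176) and limma with a pseudocount of 10 (adjusted p = 0.00488) called it.

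Suprabasin (Sbsn), a secreted protein of suprabasal keratinocytes, was the exception. It had 549 normalised reads in MS1210.1 and 413 in MS1349.1, but it was also present in every AC(NST) tumour, highest in MS1166.1 (271), then MS1218.2 (154), MS1155.3 (129), MS1213.1 (120.4), MS1163.2 (69.6) and MS1163.1 (66.1), and the sarcoma had 42.6. The ASQC tumours were above all AC(NST) tumours, yet the difference did not pass the test (1.84 ± 0.50, edgeR adjusted p = 0.188), whereas DESeq2 called it (adjusted p = 0.0490). Without MS1166.1 it was called (log2 fold change 2.15, edgeR adjusted p = 0.0401).

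Between genes, levels were compared per kilobase of exon. On that scale Sprr1a (3518 normalised reads per kilobase) and Cnfn (3036) led in MS1210.1, before Rptn (1973), Crct1 (1216) and Scel (704). In MS1349.1 the order was Sprr1a (820.3), Rptn (739.6), Crct1 (705), Cnfn (408), Sprr2a3 (202), Sbsn (114) and Scel (96.3). The first 5 genes of MS1210.1 made up 94.2% of all cornified envelope reads in MS1210.1 (Wilson 93.9% to 94.5%) and 69.8% in MS1349.1 (68.9% to 70.8%). The differences between tumours of 1 group have no replicate check.

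The 2 ASQC tumours differed in the levels of many of these genes. MS1210.1 had more of the 5 genes with most reads in it, a direction that this choice in part fixes: the ratio of MS1349.1 to MS1210.1 was 0.135 for Cnfn (exact 95% interval 0.121 to 0.149), 0.137 for Scel (0.122 to 0.154), 0.233 for Sprr1a (0.217 to 0.251), 0.375 for Rptn (0.362 to 0.388) and 0.580 for Crct1 (0.530 to 0.634). In MS1349.1, Sprr2a3 (582 normalised reads) stood above Crct1 (558), Cnfn (294) and Scel (241). MS1349.1 had more of most others, with ratios of 23.6 for Sprr2a3 (16.8 to 34.2), 29.1 for Lor (4.81 to 1189), 13.2 for Lce3f (4.87 to 50.5) and 4.09 for Hrnr (3.34 to 5.05). The interval lay above 1 for 25 of the 49 genes, including 12 of the 21 LCE and 9 of the 13 SPRR genes, and below 1 for 6, which were these 5 genes and Sbsn. Kprp (0.972) and the Flg row ENSMUSG00000081977 (1.002) were alike within counting error. Of 14065 genes with at least 5 counts in both tumours, 6832 were higher in MS1349.1 and 7233 in MS1210.1. These intervals compare 2 libraries, with counting error only.

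**Figure D4:**
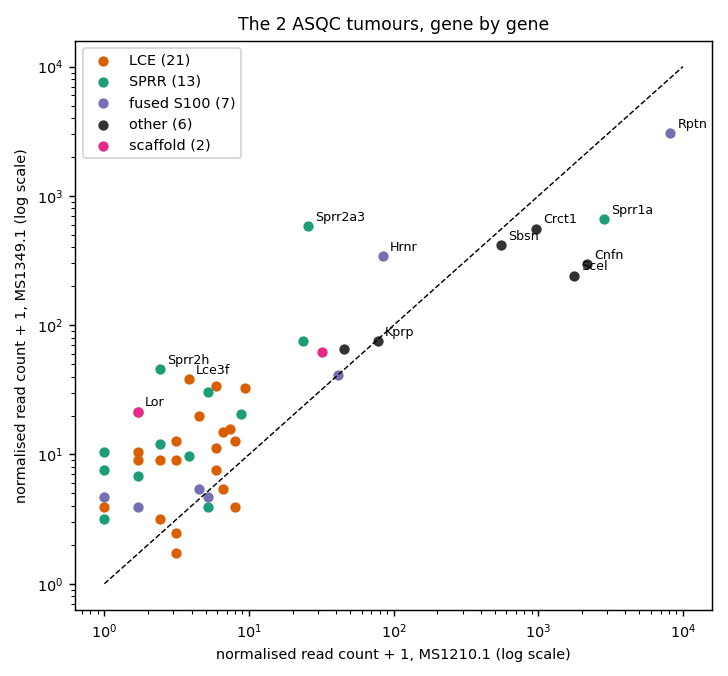
Each point is 1 of the 49 genes, with its normalised read count plus 1 in MS1210.1 (x axis) and MS1349.1 (y axis), both on log scales, and the dashed line marks equal values. Rptn, Sprr1a, Cnfn, Scel and Crct1 lie below the line at the upper right, whereas most SPRR (green) and LCE (orange) genes lie above it at the lower left.

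Neu amplification and histotype overlapped, since both ASQC tumours were not/low-amplified and MS1166.1 was the single not/low-amplified AC(NST) tumour. Compared by amplification, Rptn, Sprr1a, Cnfn and Hrnr were lower in the 5 high-amplified tumours than in the 3 not/low-amplified ones (4 of the 16 tested, where 0.599% of 14517 genes were called lower). None of the 4 was called with the same-mouse tumours MS1163.1 and MS1163.2 summed, nor with limma. All but Sbsn of the 16 passed the count minimum through the ASQC tumours, which lie in the not/low-amplified group. Their share of calls here therefore also follows in part from the filter. The log2 fold change of Rptn was -12.26 ± 1.91 (edgeR adjusted p = 0.0307). MS1166.1 itself held 2.38 normalised reads of Rptn and Sprr1a, 1.19 of Hrnr and none of Cnfn, and only Rptn and Sbsn (2 of the 49, where 6.45% of 18358 genes did so) had all 3 not/low-amplified tumours above all 5 high-amplified ones. For Rptn this order rested on 2 reads in MS1166.1 against at most 1 in each high-amplified tumour, within counting error. Sbsn, with its 271 reads in MS1166.1, was not called (-1.91 ± 0.39, edgeR adjusted p = 0.0532). With amplification as a covariate none of the 16 genes was called for histotype (smallest edgeR adjusted p 0.0844, for Rptn), although 13 had an unadjusted p under 0.05, and no gene of the 14517 was called. The log2 fold changes in that fit were 11.17 ± 1.22 for Rptn, 13.32 ± 2.37 for Cnfn and 9.49 ± 1.80 for Sprr1a. Without the covariate they were 12.41 ± 0.63, 11.99 ± 0.93 and 9.13 ± 0.77. Of the others, Crct1 rose from 8.79 to 12.62 ± 2.36 and Sprr2a3 from 7.97 to 11.30 ± 3.06. Hrnr fell from 8.75 to 7.37 ± 1.82 and Sbsn from 1.84 to 0.86 ± 0.66. The median over the 16 genes was 8.70 with the covariate and 7.39 without, and each standard error was larger with it. MS1166.1 is the single tumour that separates the factors in that fit.

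Both ASQC mice were parous. In the 5 tumours of parous mice alone, Rptn was the only 1 of the 16 genes called with the main filter. Over all genes 2 were called there. Without a filter, an alternative that was not planned, 5 of the 49 genes were called higher in ASQC there. They were Rptn, Sprr1a, Cnfn, Crct1 and Scel (0.178% of 17391 genes were called higher). Their log2 fold changes were 8.02 to 12.19 there, with edgeR adjusted p of 0.00698 for Rptn and 0.035 for Scel. With parity as a covariate in all 8 tumours and the main filter, 4 were called: Rptn, Sprr1a, Crct1 and Scel. Of all 14517 genes 0.131% were called higher, and the limit from the filter given above holds here too. Leaving out MS1163.2 and MS1218.2, the AC(NST) tumours with the most skeletal muscle and fibroblast RNA, left 5 calls. These were the same 5 genes as in parous mice without a filter. Over all genes 26 were called in that fit. The limit from the filter also holds for it, and for parous mice alone with the main filter. 

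Of 32 genes for the enzymes and junction proteins that make cornification possible, 29 were tested, 11 were called higher in ASQC and none lower, where 1.01% of all 14517 genes were called higher, with a median log2 fold change of 3.92 without a filter beside -0.16 over all genes. The called genes were the desmosomal cadherins Dsg1a and Dsc1, the crosslinking enzyme Tgm3, the ceramide synthase Cers3, the protease Klk14, the filaggrin-processing protease Asprv1, the fused S100 genes Tchh and Tchhl1, and Csta1, Dmkn and Sdr16c6. Among the 18 others, the junction proteins Pkp1 (edgeR adjusted p = 0.754) and Dsp (0.543), the protease inhibitor Spink5 (0.690), Calml3 (0.544) and the lipoxygenase Aloxe3 (0.635), named after their values were seen, overlapped between the groups. Asprv1 had 31158 normalised reads in MS1210.1 and 3966 in MS1349.1, against 7.35 to 374 in AC(NST) (6.51 ± 1.27, edgeR adjusted p = 0.0491). Trichohyalin (Tchh), which hardens the inner root sheath of hair and tongue papillae, went the other way between the ASQC tumours, with 3292 and 15830 against 1.05 to 57.2 (8.94 ± 1.05, edgeR adjusted p = 0.00503). The keratins that usually accompany cornification in epidermis, named here after their values were seen, were low: Krt1 had 27.4 and 113 normalised reads in the ASQC tumours and at most 4.76 in AC(NST), Krt10 had 42.9 and 140.3 against at most 20.6, and Krt2 had 0 and 0.731 against 0.

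Of 26 transcription factors known from keratinocyte differentiation, all were tested and none was called for histotype in either direction by edgeR, whereas DESeq2 called 1 higher. By edgeR, 8 had an unadjusted p under 0.05, beside 1411 of all 14517 genes. They were Grhl3, Trp63, Klf4, Ovol1, Prdm1, Klf5, Fosl2 and Grhl1, with log2 fold changes of 0.89 to 4.43. For these 8 the groups did not overlap, and for the rest they did. Compared by amplification, 3 of the 26 were called higher in the not/low-amplified group, which holds both ASQC tumours. The median log2 fold change for histotype, without a filter, was 0.33 beside -0.16 over all genes. The 12 markers of basal and stratified epithelium had a median of 3.29, and only Krt6b was called, at 5376 and 954 in ASQC against 0 to 69.6 in AC(NST) (7.98 ± 1.52, edgeR adjusted p = 0.0444), which DESeq2 did not call. By edgeR, 7 of the 12 had an unadjusted p under 0.05. Their list summed to 54327 to 109942 normalised reads in ASQC and 13675 to 38907 in AC(NST), without overlap.

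Markers of other cell types moved with the groups to different degrees. Of 13 hair keratin and inner root sheath genes, 7 were called higher in ASQC (Krt25, Krt27, Krt28, Krt31, Krt72, Krt73 and Krt81), and their list summed to 1717 and 5297 normalised reads in ASQC, 144 in MS1163.2 and at most 14.2 in the other AC(NST) tumours. Their part in the cornified envelope result was not tested. Luminal markers summed to 93913 to 104012 in ASQC and 40418 to 149231 in AC(NST) with none at 0, and none of the 10 was called by edgeR or DESeq2 (2 at an unadjusted edgeR p under 0.05). Muscle markers (165 to 170 in ASQC, 69.3 to 3432 in AC(NST)), fibroblast markers (51286 to 104195, and 29756 to 381344), melanocyte markers (269 to 360.1, and 248.6 to 423) and sebaceous markers (107 to 267, and 90.4 to 189.8) overlapped between groups, with none called by edgeR (1, 0, 0 and 1 at an unadjusted p under 0.05) and 1 muscle gene called lower by DESeq2. Of the immune markers, summing to 9634 to 12399.7 and 1898 to 19781, only S100a9 was called. S100a8 was the other of 2 with an unadjusted edgeR p under 0.05. The remaining tested immune markers overlapped between the groups.

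The promoters of the genes were read from RefSeq for GRCm38.p6, in which 42 of the 46 member symbols had an entry. The letters searched on both strands in the 250 bases before the start were TGANTCA and TATAAA, the TATA box. TGANTCA covers TGAGTCA and TGACTCA, the core of the site for AP-1 factors, but also A or T at N. Matches to the narrower core alone were not counted. TGANTCA was present in 38.1% of the 42 promoters and in 6.75% of all 32851 promoters, with 8 of 12 SPRR genes and 0 of 20 LCE genes holding it. TATAAA on the gene's strand within 40 bases of the start was present in 35.7% and 2.31%, and in 45.2% and 12.4% when any position on either strand counted. These are matches of letters. The 150 bases before the start are shown for the 4 genes with most reads in MS1210.1, with both motifs in capitals.
Rptn, chr3:93393549-93393698, plus strand: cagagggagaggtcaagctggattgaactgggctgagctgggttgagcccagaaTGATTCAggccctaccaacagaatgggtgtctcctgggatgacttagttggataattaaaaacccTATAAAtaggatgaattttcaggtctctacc
Sprr1a, chr3:92485882-92486031, minus strand: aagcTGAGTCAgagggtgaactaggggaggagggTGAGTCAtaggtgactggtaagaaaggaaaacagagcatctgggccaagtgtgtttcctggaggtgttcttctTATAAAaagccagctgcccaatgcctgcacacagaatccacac
Cnfn, chr7:25369725-25369874, minus strand: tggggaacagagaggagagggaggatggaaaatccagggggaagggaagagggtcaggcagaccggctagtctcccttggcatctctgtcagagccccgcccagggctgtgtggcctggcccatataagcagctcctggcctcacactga
Scel, chr14:103513191-103513340, plus strand: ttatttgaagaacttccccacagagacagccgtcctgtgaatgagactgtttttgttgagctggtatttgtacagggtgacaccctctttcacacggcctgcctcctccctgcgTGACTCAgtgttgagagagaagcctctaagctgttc
Within these windows Rptn and Sprr1a hold both motifs, Scel holds TGANTCA alone and Cnfn holds neither, although all 4 were high in both ASQC tumours. The match in Rptn is TGATTCA, which is not the narrower AP-1 core.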

How the data were processed

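RNA of 9 mammary tumours was sequenced after rRNA depletion with a strand-specific kit. According to the study's methods, the authors aligned read pairs to GRCm38 with STAR (at most 3 mismatches, unique reads kept) and counted genes with HTSeq-count, whose strand setting is not given in the sources used here. The submitters' processing notes also name FastQC, Cufflinks and DESeq2. The deposited count values are whole reads per gene for all 9 tumours. The deposited signal values for the 8 epithelial tumours are those counts divided by DESeq2 size factors, and are called normalised read counts here. The sarcoma was scaled here to the geometric mean of the other 8.

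ASQC (n = 2) was compared with AC(NST) (n = 6), and high-amplified (n = 5) with not/low-amplified (n = 3) tumours, by edgeR 4.0.16 (TMM, glmQLFit, glmQLFTest, Benjamini-Hochberg over all genes), on genes that reached 10 counts in 2 or more of 8 tumours, since a minimum in 3 tumours removes genes present in the 2 ASQC tumours alone. Genes were called at an adjusted p under 0.05 and a log2 fold change beyond 1. SE is the log2 fold change over the square root of the F statistic. The members, lists and tests were chosen with earlier results of these data known. Single-copy genes and the 4 most abundant SPRR and LCE genes are given by tumour, and other genes by range. The alternatives were limma 3.58.1 on log2 values, DESeq2 1.42.0, other scalings and filters, covariates, subsets and leaving out each tumour. Counting intervals are Wilson or exact at 95%. The edgeR step was tested on simulated data. Tumours are single samples of different mice except MS1163.2 and MS1163.1, which share a mouse number. Positions and transcript windows came from GENCODE M21, whose genome build is the authors'.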

Additional observations from a re-analysis of the deposited data

Results flagged for a closer look

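In the sarcoma, which entered no comparison, Sbsn had 30 reads, above the 3 reads that a count of 0 allows. Among the 6 AC(NST) tumours, 13 sums or genes were examined for a value far from the others by Dixon's test, of which chance flags about 1 in 20, and 4 were found, none of them a cornified envelope value. MS1166.1 stood apart with a summed normalised read count of luminal markers of 149231. MS1163.2 stood apart with 144 for hair keratins and with 3432 for skeletal muscle markers. MS1218.2, which the methods name for its lower purity, stood apart with 381344 for fibroblast markers.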

How the results depend on the processing

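The 11 cornified envelope genes called higher in ASQC (of 149 genes called) were the same 11 under RLE and upper-quartile scaling and with no filter. The count was 13 with DESeq2, which also called Krtdap and Sbsn, 10 with limma on log2(value + 1), 11 with a pseudocount of 10, Krtdap among them, and 10 with the same-mouse tumours summed. It was 7 with a mean count of at least 50 (8 tested), 4 with parity as a covariate, 1 in parous mice alone, 5 there with no filter, 5 without MS1163.2 and MS1218.2, and 0 with amplification as a covariate. A minimum of 10 counts in 3 tumours gave 0, since it left only Sbsn to test. For all genes, the count was 512 with DESeq2, 33 with the 3-tumour minimum, 87 at a mean of 50, 94 with same-mouse tumours summed, 2 in parous mice, 32 there with no filter, 20 with parity, 0 with amplification (1682 at an unadjusted p under 0.05) and 26 without MS1163.2 and MS1218.2.

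Leaving out each tumour gave 0 to 12 cornified envelope genes and 12 to 253 genes in all. The 0 came from leaving out either ASQC tumour, after which the filter kept only Sbsn. With no filter, an alternative chosen after seeing the data, the range was 7 (without MS1349.1) to 12 (without MS1166.1), and Cnfn, Crct1, Hrnr, Kprp, Rptn, Scel and Sprr1a were called in all 8 fits. In those fits the count over all genes was 88 without MS1213.1, 83 without MS1210.1, 63 without MS1349.1 and 294 without MS1166.1. The lone ASQC tumour is then assumed to vary like the other group.

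By amplification, the 4 cornified envelope genes (of 160 genes) became 12 with DESeq2, 8 with no filter, 0 with limma at a pseudocount of 1 or of 10, 0 with the 3-tumour minimum, 0 with same-mouse tumours summed and 0 in AC(NST) tumours alone, and 0 to 12 with each tumour left out, 9 without MS1218.2 and 12 without MS1166.1. Over all genes, DESeq2 gave 1594, same-mouse tumours summed 30, AC(NST) tumours alone 45, and leaving out each tumour 0 to 1264, the highest without MS1218.2. The causes were not tested.

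Of 720 fold changes of single cornified envelope genes under the alternatives, 654 kept their direction and side of the threshold, 60 kept the direction but lost the call, 5 gained it (Sbsn and Krtdap) and 1 reversed: Flg2, at -2.83 on the log2 scale without MS1349.1 and with no filter, where it had no ASQC read. No paired analysis was possible because the groups share no replicate numbers that pair tumours in the labels. Without Sprr2 and Lce genes the share was 1007 CPM in MS1210.1 and 339 in MS1349.1.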
